A study of Mus musculus with 2 samples.

Results

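LDL receptor-related proteins are single-pass receptors built from cysteine-rich ligand-binding repeats, joined in most of them to propeller-shaped modules. The large members Lrp1 and Lrp2 take up ligands such as apolipoproteins and protease complexes by endocytosis, and Lrp5 and Lrp6 are the co-receptors through which Wnt ligands signal together with Frizzled receptors. Each member gene was examined for N4-acetylcytidine (ac4C), an acetyl mark on cytidine that the enzyme NAT10 places on RNA. The peaks were those of the deposited list whose summit, the point of strongest signal, lay in the RefSeq span of a member gene, introns included. The 9 members were Lrp1, Lrp1b, Lrp2, Lrp4, Lrp5, Lrp6, Lrp8, Lrp10 and Lrp12. Their spans held 83 of the 21192 peaks in the list. The members were chosen by family name with the number of their peaks already known. The numbers, widths and enrichments below are therefore a description, and no test was made on them.

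Wild-type mice on gestational day 4 gave the RNA, which was taken from the whole uterus. The series has 1 acRIP-seq library, made from RNA fragments pulled down with an antibody to ac4C, and 1 input control library of the same tissue. The ages of the animals and the number pooled were not given in the sources used here. No library has a replicate, so no value below has a replicate check, and the intervals cover only the counting error of the pulled-down fragments.

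The list gave a fold enrichment for each peak, as the authors' peak caller computed it. Its values matched the fragments at the summit plus 1, divided by the background there plus 1. The added 1 lowers the ratio most where the background is below 1 fragment. Over the whole list the median fold enrichment was 5.58 (interquartile range 4.33 to 7.38), and the median width was 315.5 bp. The depth behind a summit was a median of 22 fragments over a background of 2.63 fragments. Of 25 marker genes of uterine cell types, 20 (80%) held a peak, beside 30.6% of all protein-coding genes. All 5 of the stromal and all 5 of the smooth muscle markers did, as did 4 of 5 epithelial, 4 of 5 endothelial and 2 of 5 immune markers. The markers without one were Epcam, Tek, Ptprc, Adgre1 and Itgam. A peak gives no transcript level, and in whole tissue fewer cells of a type cannot be told apart from less RNA per cell.

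Sequence from RefSeq (GRCm38.p6) is given at 3 places that bear on the peaks. The first 2 are the starts of Lrp1 and Lrp2, shown because the first peak of each of these genes lay less than 1000 bp downstream. Capitals mark the first 15 transcribed bases, and the lower-case letters before them are the 15 bases upstream.
Lrp1 (chr10:127621134-127621163, minus strand): cccccgcggcacttcAGTCAGGGGAGCAGC
Lrp2 (chr2:69586015-69586044, minus strand): tcaggcgccgggaccGGCTTTCTGCCTCTA
The other is the summit of the only peak in Lrp6, with the base at the summit in capitals, on the plus strand of the genome.
Lrp6 (chr6:134451044-134451073, plus strand): gggcggtgcaaagtgCcggtagctgtacgg

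Peaks were found in 6 of the 9 genes, and 49 of the 83 (59.0%) lay in Lrp1 alone. Lrp5 held 15, Lrp2 held 10, Lrp10 held 5, Lrp1b held 3 and Lrp6 held 1. Lrp4, Lrp8 and Lrp12 held 0. Of all 21900 protein-coding genes, 30.6% held a summit in their span, counting a summit for every gene it lay in. At least 10 summits were found in 1.37% of them and in 3 of the 9 members. Among the genes with a peak the median number was 2. Extending each span by 1 kb at both ends, or counting every peak that touched a span, left the number at 83, so no peak lay just outside a member gene.

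Relative to the length of the gene, the order of the members was different. Lrp10 came first with 8.12 peaks per 10 kb of span and Lrp1 followed with 5.90. Lrp5 had 1.47, Lrp2 0.618, Lrp6 0.0830 and Lrp1b 0.0146 per 10 kb. The median over all protein-coding genes with a peak was 0.845, with an interquartile range of 0.300 to 2.37. Lrp10 and Lrp1 were thus above that range, Lrp5 and Lrp2 within it, and Lrp6 and Lrp1b below it. The genes behind that range had a median span of 26.5 kb. They were not matched to the members by span, on which density depends. Lrp10 is short (6.16 kb) and reaches its density with 5 peaks, whereas Lrp1 spans 83.0 kb. A span counts introns as well as exons, and exon positions were not used here. The plot of peak density against span sets both genes beside all others.

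**Figure D1:**
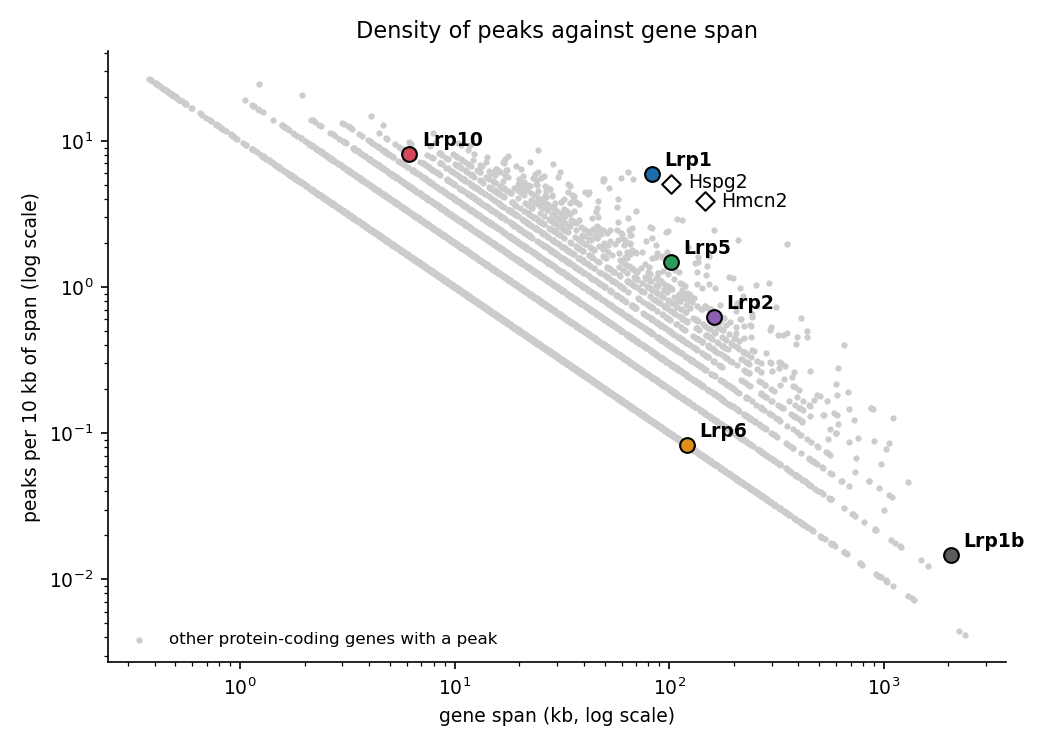
Peaks per 10 kb of gene span (vertical, log scale) against gene span in kb (horizontal, log scale) for the 6709 protein-coding genes with a peak; coloured points are the 6 members with a peak, diamonds are Hspg2 and Hmcn2, and the diagonal lines of grey points are genes with the same small number of peaks. Lrp10 (8.12) and Lrp1 (5.90) lie high, and Lrp6 (0.0830) and Lrp1b (0.0146) lie low.

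Lrp1, also known as CD91, is a large endocytic receptor of fibroblasts, smooth muscle and macrophages that clears alpha-2-macroglobulin and protease-inhibitor complexes. Its gene (NCBI gene 16971) lies on the minus strand of chromosome 10, from 127538157 to 127621148. Only 3 protein-coding genes held more peaks than its 49. Of the 299 genes with at least 10 peaks, 26 had a higher density, and the median of the 299 was 2.16 per 10 kb. The peaks of Lrp1 covered 19249 bp, or 23.2% of the span. Neighbouring summits were separated by a median of 1034 bp. The distance was under 1000 bp for 23 of 48 neighbours and under 2000 bp for 40.

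The peaks of Lrp1 were not spread evenly along it. From the 5′ end, the summits numbered 6 in the first part of the span, 18 in the middle and 25 in the last, with the span cut into 3 equal parts. The 5′ part held 3 isolated peaks, at 0.319, 5.79 and 15.5 kb from the start. After a gap of 10414 bp, the widest in the gene, the other 46 summits ran from 26.0 to 82.7 kb. The last of them lay 0.324 kb from the 3′ end. The peak at 15.5 kb also lay in Gm51820, a long non-coding RNA gene inside Lrp1. Without a strand in the list, its source could be either gene.

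Fold enrichment in Lrp1 ranged from 2.77 to 11.2 with a median of 5.29, and 23 of the 49 peaks were at or above the median of the whole list. The strongest peak, at 57.4 kb from the start (chr10:127563648-127563943), stood at 11.2 (95% interval 8.91 to 14.0) on 79 fragments over a background of 6.13. The weakest, at 53.7 kb (chr10:127567260-127567638), stood at 2.77 (1.84 to 4.01) on 26 fragments over 8.75. Their intervals did not overlap, but these peaks were picked as the extremes of the 49, which favours separate intervals. In the gene, 32 peaks had an interval wholly below that of the strongest. All 8 peaks with a fold enrichment of at least 9 lay between 43.0 and 70.1 kb from the start.

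At a few places strong and weak peaks lay side by side. Of the 48 pairs of neighbours in Lrp1, 5 had intervals that did not overlap. One such pair had summits 547 bp apart, at 68.8 and 68.3 kb from the start. The first stood at 10.3 (7.72 to 13.5) on 50 fragments over a background of 3.94. The second stood at 3.34 (2.37 to 4.59) on 36 fragments over a background of 10.1. Across the 49 peaks the fold enrichment was lower where the background was higher (Pearson's r −0.47, Spearman's rho −0.54). These peaks share 1 pair of libraries and the background enters the fold enrichment, so the correlation is a description. Fold enrichment showed no steady rise or fall along the gene (r −0.07, rho −0.01, measured from the 3′ end). These coefficients would miss a rise in the middle. In the 3 equal parts from the 5′ end, the medians were 4.57, 5.73 and 5.61. The highest values there were 6.03, 10.4 and 11.2.

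**Figure D2:**
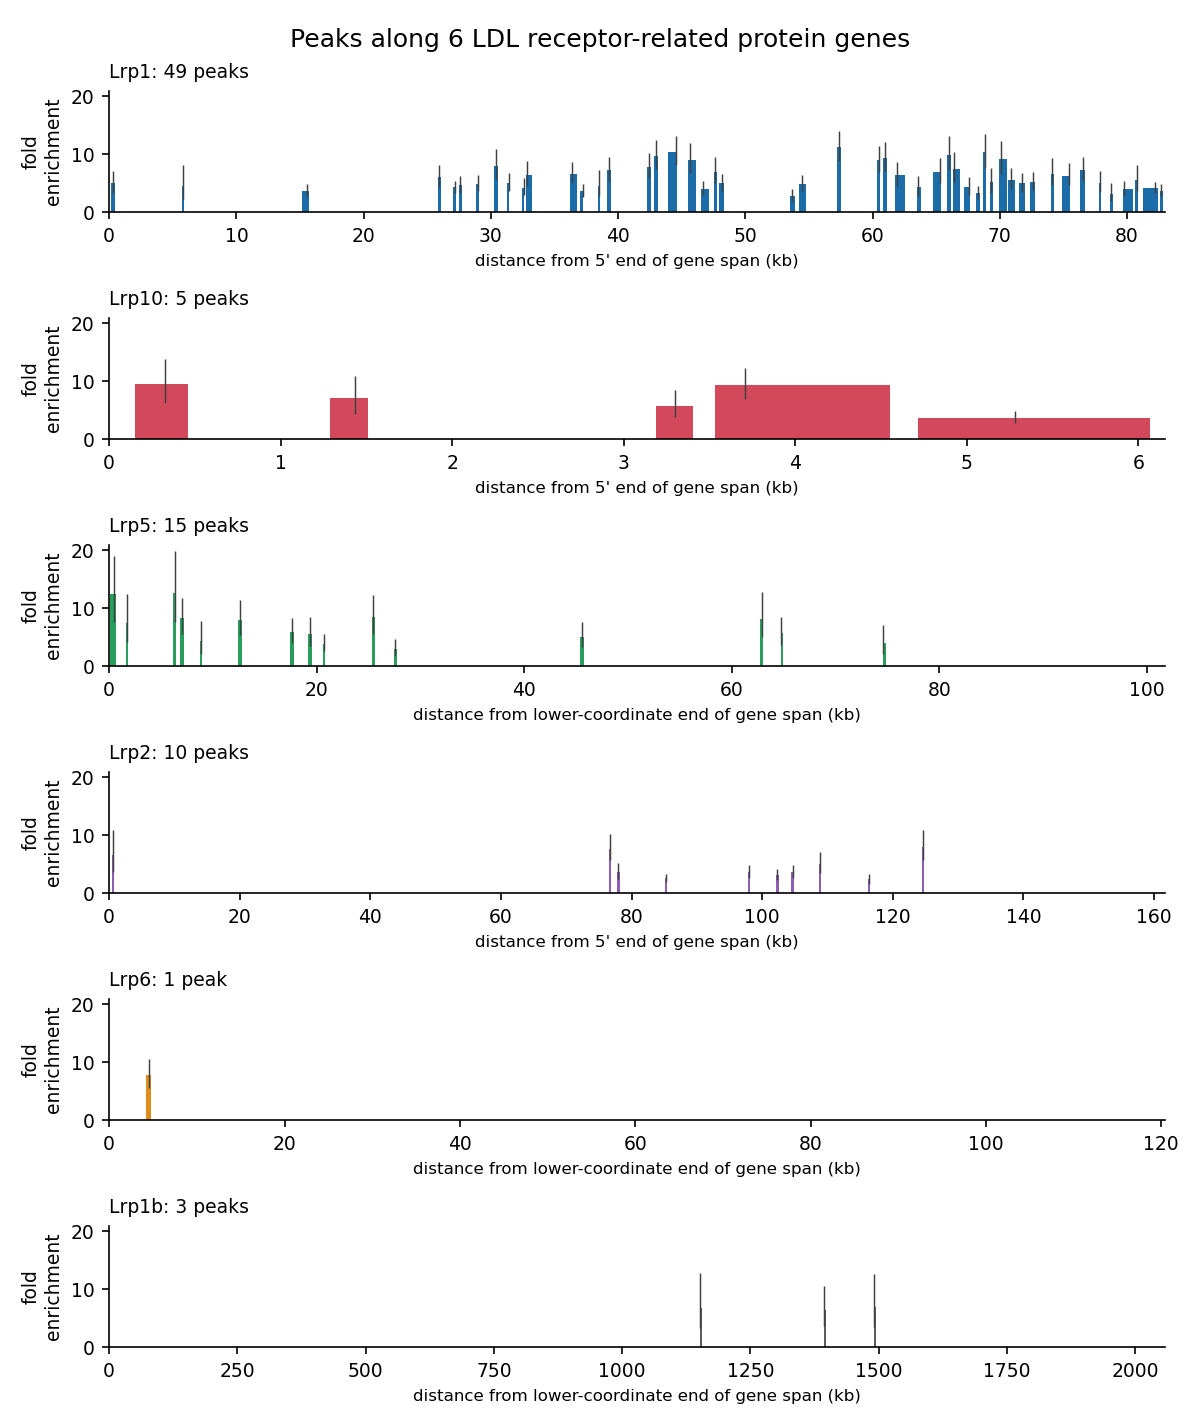
Fold enrichment (vertical) of each peak along its gene (horizontal, kb) for the 6 members with a peak; a bar spans the width of the peak, widened where it would be too thin to see, and the thin line is the 95% interval from counting error. Distance runs from the 5′ end where the promoter table gives the strand (Lrp1, Lrp10, Lrp2) and otherwise from the end with the lower coordinate; the 49 peaks of Lrp1 thin out in its first 26.0 kb, and Lrp2 has a gap of 76.1 kb after its first peak.

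Lrp1b is the closest relative of Lrp1 and is known mainly from the brain and as a gene often lost in tumours. It held 3 peaks on a span of 2058 kb (NCBI gene 94217; chromosome 2, 40595290 to 42653598), 24.8 times the span of Lrp1. The peak at chr2:41746123-41746324 stood at 6.83 (3.38 to 12.7) on 8 fragments over 0.317, the lowest background of the list. That at chr2:42085483-42085726 stood at 6.96 (3.56 to 12.6) on 9 fragments over 0.438. The peak between them, chr2:41987737-41987995, stood at 6.48 (3.74 to 10.6) on 14 fragments over 1.31, and its summit also lay in the pseudogene Gm13461. The 3 peaks were narrow, at 202 to 259 bp, and 97.8 to 241.6 kb apart. Their fold enrichments lay within the range of the other members although their fragments were few, and with a −log10 q of at least 10 none of the 3 remained.

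Lrp2, or megalin, is the endocytic receptor of absorptive epithelia for vitamin carriers and lipoproteins. Its gene (NCBI gene 14725) lies on the minus strand of chromosome 2, from 69424335 to 69586029. It held 10 peaks on 161.7 kb, so that Lrp1 was 9.55 times denser. The first summit lay 0.563 kb from the 5′ end, and the next came only after 76.1 kb. The other 9 lay between 76.7 and 124.6 kb, and the last 37.1 kb held 0. Lrp1 in contrast had summits up to 0.324 kb from its 3′ end.

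The peaks of Lrp2 had the lowest median fold enrichment of the 6 genes, 3.67, with a range of 2.40 to 8.03. Of these 10 peaks, 3 were at or above the median of the whole list. The highest stood at 8.03 (5.77 to 10.9) on 39 fragments (chr2:69461336-69461551). The lowest stood at 2.40 (1.69 to 3.31) on 35 fragments over a background of 14.0 (chr2:69469494-69469801). The median background was 8.75 fragments, the highest among the 6 genes, beside 6.13 in Lrp1. Among peaks with a background of 3 to 12 fragments, a range chosen after the data were seen, the median was 4.40 over 6 peaks of Lrp2 and 5.82 over 44 peaks of Lrp1. After the filter at a −log10 q of 10 the order of these medians turned, to 6.40 over 4 peaks of Lrp2 and 6.36 over 39 peaks of Lrp1. Among peaks at or above the median fold enrichment of the list it turned as well, to 7.68 over 3 peaks and 7.48 over 23. That filter removes low fold enrichments by rule, and the q-value also depends on fold enrichment. Neither turned order therefore compares the full sets of peaks. Peaks of Lrp2 were also narrow, with a median of 224.5 bp, and 8 of 10 were below the median width of the list.

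**Figure D3:**
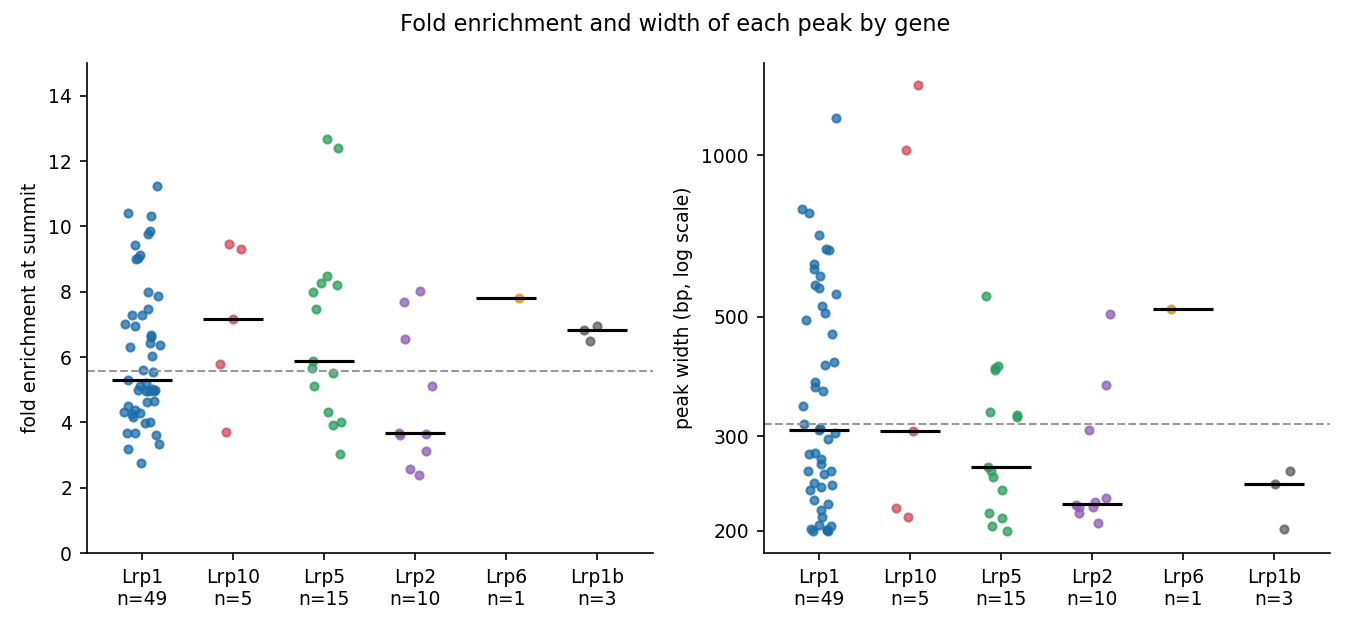
Fold enrichment (left) and width in bp on a log scale (right) of every peak, by gene; each point is 1 peak, the black bar is the median of the gene and the dashed line is the median of the whole list (5.58 and 315.5 bp). The medians of fold enrichment run from 3.67 in Lrp2 to 7.81 in Lrp6, and the 3 peaks over 1000 bp lie in Lrp1 and Lrp10.

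Lrp5 and Lrp6 are close paralogues that act with the same Wnt ligands, and their numbers of peaks were far apart. Lrp5 (NCBI gene 16973; chromosome 19, 3584825 to 3686585) held 15 peaks on 101.8 kb. Lrp6 (NCBI gene 16974; chromosome 6, 134446476 to 134566913) held 1 on 120.4 kb. The density of Lrp5 was 17.8 times that of Lrp6, at 1.47 against 0.0830 peaks per 10 kb. That of Lrp5 was 0.688 after the filter at a −log10 q of 10 (7 peaks) and 0.491 with a background of 3 to 12 fragments (5 peaks), while Lrp6 kept its peak under both. For genes of 50 to 150 kb, 42.6% held any summit. The promoter table held no start for either gene, so places are given from the end with the lower coordinate.

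In Lrp5, cut the same way, 11 summits lay in the first part from that end, 3 in the middle and 1 in the last. The last summit lay at 74.6 kb of 101.8 kb. The 2 strongest peaks of the 9 members were here. That at 6.33 kb (chr19:3590981-3591218) stood at 12.7 (7.68 to 19.9) on 17 fragments over 0.420. That at 0.471 kb (chr19:3584914-3585460), the widest of the gene at 547 bp, stood at 12.4 (7.71 to 19.0) on 19 fragments over 0.613. The other 13 peaks ran from 3.04 to 8.47, and the median of all 15 was 5.87. Both of the strongest lay at backgrounds below 1 fragment. Among peaks with a background of 3 to 12 fragments, the highest of Lrp5 was 5.87, below those of Lrp1 (11.2), Lrp10 (9.30), Lrp2 (8.03) and Lrp6 (7.81). These peaks rested on fewer fragments than those of Lrp1, with a median of 19 against 41, over a median background of 2.63 against 6.13. Within Lrp5 too, fold enrichment was lower at higher background (r −0.68, rho −0.65 over 15 peaks).

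The peak of Lrp6 (chr6:134450687-134451203) was 517 bp wide and stood at 7.81 (5.66 to 10.5) on 41 fragments over 4.38. Its summit, printed above, lay 4.58 kb from the lower end of the gene. It was 18 bp outside the long non-coding RNA gene Gm52921, whose start at 134451077 falls inside the peak. Part of the peak thus lay in Gm52921, and without a strand in the list its source could be either gene. The 300 bases around the start of Gm52921 in the promoter table all lay within the peak and made up 58.0% of it. They held 56.3% G and C, against a median of 52.7% over 32851 such windows. Cytidine made up 22.0% on the plus strand and 34.3% on the minus strand. Repeats of CNN (4 in a row) were present on the minus strand and not on the plus strand, and 88.1% of all windows held them on one strand or the other.

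Lrp4, the agrin receptor that works with the kinase MuSK at the neuromuscular junction and also binds Wnt inhibitors, held 0 peaks on 56.4 kb. Lrp8, the apolipoprotein E receptor 2 that receives the reelin signal, held 0 on 74.6 kb, and Lrp12 held 0 on 73.4 kb. The list gives no background where it has no peak. Enrichment in these 3 genes was therefore not detected at this depth, which does not show that ac4C was absent.

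Lrp10 and Lrp12 are shorter receptors that combine ligand-binding repeats with CUB domains, and Lrp10 shuttles between the Golgi and endosomes. Lrp10 (NCBI gene 65107) lies on the plus strand of chromosome 14, from 54464137 to 54470292. Its 5 peaks covered 50.5% of the span, beside 23.2% in Lrp1 and a median of 3.03% over all genes with a peak. In order from the 5′ end, the first (chr14:54464288-54464594) stood at 9.45 (6.24 to 13.8) on 25 fragments. The second stood at 7.16 (4.45 to 11.0) on 19 fragments and the next at 5.78 (3.82 to 8.42) on 25.

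The remaining peaks of Lrp10 were the wide ones. The peak at chr14:54467667-54468688 was 1022 bp wide and stood at 9.30 (6.93 to 12.2) on 49 fragments. The last, at chr14:54468855-54470202, was 1348 bp wide, the widest of the 9 members, and stood at 3.70 (2.75 to 4.88) on 48 fragments. These wide peaks alone took up 38.5% of the span. The background rose from 1.75 fragments at the first peak to 12.3 at the last. The interval of the last peak lay below those of the first and of the other wide peak. All 5 peaks kept a −log10 q of at least 10.

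A peak close to the start was common among the members whose start is known. A start was found in the promoter table for Lrp1, Lrp2, Lrp8 and Lrp10, and 3 of these 4 genes had a summit in the first 1000 bp. Of 17492 protein-coding genes with a start in the table, 10.1% had such a summit, and of the 5351 among them with any peak, 32.9% did. The summit lay 319 bp after the start in Lrp1, 563 bp in Lrp2 and 314 bp in Lrp10. The fold enrichment there was 4.99 (3.37 to 7.13) in Lrp1, 6.55 (3.71 to 10.9) in Lrp2 and 9.45 (6.24 to 13.8) in Lrp10. These 3 intervals overlapped. No peak reached the promoter windows themselves, the nearest edge being 141 bp after the start in Lrp10, 166 bp in Lrp1 and 441 bp in Lrp2. The shares were not matched for number or density of peaks. Lrp1 held 49 peaks, Lrp2 10 and Lrp10 5, beside a median of 2 over all genes with a peak. With 4 genes the share is a description.

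The strongest peaks of the members were set side by side, each being the highest of the 1 to 49 peaks of its gene. The highest fold enrichment was 12.7 in Lrp5, 11.2 in Lrp1, 9.45 in Lrp10, 8.03 in Lrp2, 7.81 in Lrp6 and 6.96 in Lrp1b. In all 15 pairs of these genes the intervals overlapped, which does not show that the heights were the same. The median of the highest peak over all genes with a peak was 6.61. The number of peaks in these 6 genes ran from 1 to 49 and was known when the members were chosen. The highest value also depends on that number, so number and height were not weighed against each other. Over the 83 peaks the median fold enrichment was 5.66 beside 5.58 in the whole list, and the median width was 279 bp beside 315.5 bp. The 83 peaks had a median of 36 fragments beside 22 in the list, and a median background of 5.25 beside 2.63. Lrp1, with most of the peaks, had a median of 41 fragments, Lrp2 had 40 and the only peak of Lrp6 had 41. Lrp10 (25), Lrp5 (19) and Lrp1b (9) were near or below the list.

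**Figure D4:**
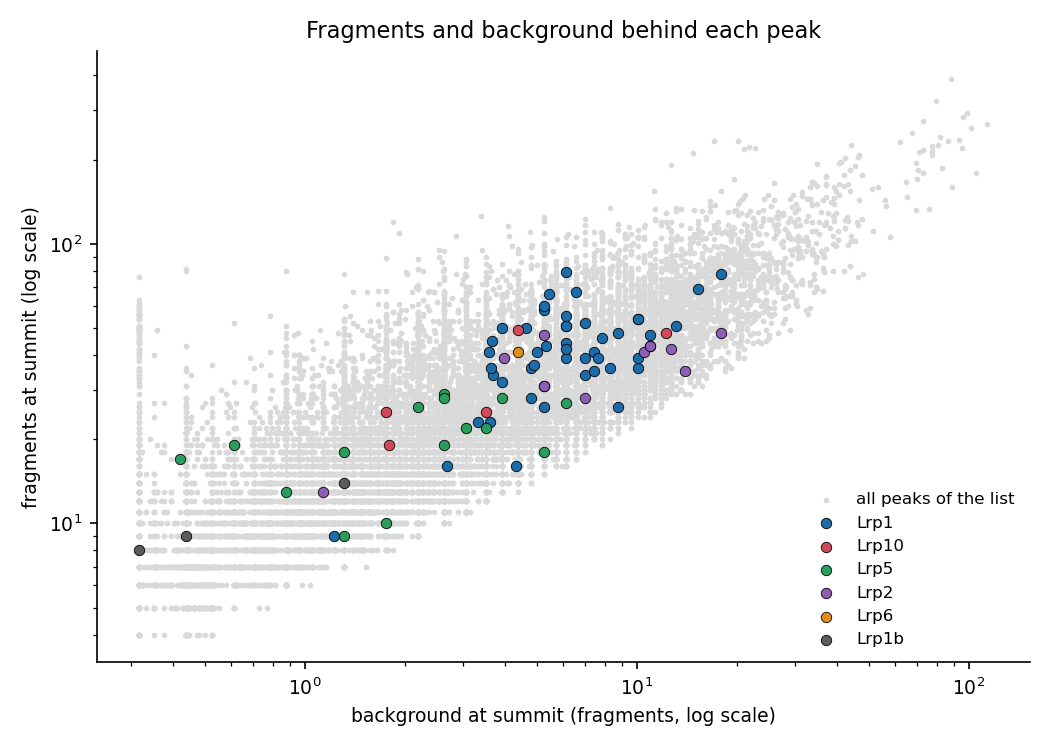
Fragments at the summit (vertical, log scale) against background at the summit (horizontal, log scale, in fragments) for all 21192 peaks (grey) and the peaks of the 6 members (coloured). Peaks of Lrp1 and Lrp2 lie mostly at a background above 2.63 fragments, the median of the list (48 of 49 and 9 of 10), those of Lrp5 less often (5 of 15), and the 3 of Lrp1b at the sparse end.

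The genes most like the 3 members with at least 10 peaks were sought by number of peaks and span together, over the 1 list. Likeness was the sum of the absolute log2 ratios of both to the member, with 0 for an identical gene. For Lrp1 they were Hspg2 (0.38; 52 peaks on 101.9 kb), Fn1 (0.70; 37 on 67.8 kb) and Ptprs (0.70; 39 on 64.1 kb). Hspg2 encodes the basement membrane proteoglycan perlecan, which carries ligand-binding repeats of the same kind, Fn1 encodes fibronectin and Ptprs a receptor phosphatase. Median fold enrichment was 6.98 in Hspg2 and 4.53 in Fn1, on either side of the 5.29 of Lrp1. Hmcn2, an extracellular matrix gene, held 57 peaks at 3.89 per 10 kb with a median of 6.27. For Lrp5 the nearest were Actn1, Trrap and Ep400, with 14 to 15 peaks. For Lrp2 they were Smarca2, Pcdhgb1 and Aff1, with 9 to 11 peaks. Pcdhgb1 belongs to a cluster of protocadherin genes with overlapping spans, so its summits count for several genes.

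Other receptors, ligands and partners of the family formed a list of 51 genes, of which 28 (54.9%) held a peak, beside 30.6% of all protein-coding genes. Transcript abundance was not measured and its part in this share was not tested. Of 8 other receptors, 4 held a peak, namely Vldlr with 1, Sorl1 with 6, Ldlrad4 with 1 and Lrp3 with 5. Lrp3, a relative of Lrp10 and Lrp12, reached 13.5 (9.18 to 19.2). Both chaperones held 1 peak. That of Mesd, which is needed to fold Lrp5 and Lrp6, was 2482 bp wide and stood at 18.5 (14.4 to 23.4). That of Lrpap1, the receptor-associated protein, stood at 2.44 (1.62 to 3.53), and the intervals did not overlap.

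Among the ligands, 6 of 10 held a peak. Agrn, the ligand of Lrp4, held 11 although Lrp4 held 0. Thbs1 held 8, and the lysosomal genes Ctsd and Psap held 6 each. Apob, Reln, A2m and Lpl held 0. Of 13 co-receptors, Wnt antagonists and signalling partners, 4 held a peak (Dkk3, Kremen1, Axin1 and Gsk3b), and Musk, Sost, Dkk1 and Cubn were among those with 0. Gsk3b, the kinase that phosphorylates the Lrp6 tail, stood at 14.7 (11.7 to 18.3) in 1 peak. Of 9 adaptors, 6 held a peak, led by Mapk8ip1, a scaffold of JNK signalling, at 18.6 (13.8 to 24.7). Of 9 sheddases and regulators, 6 did, with 8 peaks in Mmp14, a membrane protease, and 1 in Adam10 at 15.8 (10.3 to 23.1). The median over the 28 genes of the highest fold enrichment was 6.27, close to the 6.61 of all genes with a peak.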

How the data were processed

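The deposited data were 1 peak list in the narrowPeak layout. HISAT2 2.2.1, MACS3 3.0.0a7 and build mm10 are named in the submitters' processing notes, with no role or order. The fold enrichment (a ratio), the −log10 p-value, the −log10 q-value and the score of each peak are the authors' deposited values. The score was the −log10 q times 10 without decimals in 21191 of 21192 peaks. The largest q was 0.0499, and strand was given for 0 peaks. Whether the background came from the input library was not given in the sources used here.

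Libraries were grouped by title. Genes came from RefSeq GRCm38.p6 (21900 protein-coding), the assembly of mm10. Fragments and background at each summit were solved from fold enrichment, (fragments + 1)/(background + 1), and the Poisson p-value. Within a relative miss of 1e-05, 21192 of 21192 peaks had a whole-number solution and 0 had a second one. On data simulated with these same formulas, the right number was returned for 100% of 1950 peaks. That checks the solving step only, and cannot show which formulas the peak caller used. Intervals are 95% exact Poisson intervals of the fragments, with the background taken as known. PCR copies were not told from separate molecules. Starts and strands came from RefSeq promoter windows (250 bases before and 50 after each start). Python 3.11.15 and SciPy 1.17.1 were used.

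The members, gene lists and rules were chosen with earlier results of these data known. The named genes were all members with their highest peak, every peak of members with at most 3, the 5 relatives with the highest fold enrichment and the 5 with most peaks (with ties), the 3 genes nearest to each member with at least 10 peaks, and Hspg2 and Hmcn2. Other peaks and genes named were chosen after their values were seen. The alternatives filtered on q, fold enrichment, width, background or shared genes, or changed how peaks were given to genes. Exons and genome sequence outside promoter windows were not used here. Some genes of the list of relatives are not reported here and were left out of its counts.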

Additional observations from a re-analysis of the deposited data

How the results depend on the processing

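The number of peaks in the 9 genes, 83, fell to 43 when peaks below the median fold enrichment of the list were removed. It was 56 after the filter at a −log10 q of 10, 64 with widths of at most 500 bp, 58 with a background of 3 to 12 fragments and 81 without summits in another gene. Genes with a peak numbered 5 to 6 under these 7 alternatives, and the median fold enrichment ran from 5.53 to 7.68. Lrp10 was denser than Lrp1 under the other 6 alternatives (6.13 against 5.77 per 10 kb with spans extended by 1 kb). With a background of 3 to 12 fragments, a filter added after the data were seen, Lrp1 was denser (5.30 against 3.25). Lrp5 held 7 peaks and Lrp2 held 4 under the q filter. Lrp6 held 0 with widths of at most 500 bp, as its peak is wider. The density per length of exon was not run, since exon positions were not used here. Peaks of the 9 genes rested on 8 to 79 fragments, and the smallest enrichment that could be detected was not measured. No paired analysis was possible because each group had 1 library and no result comes from a test.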
